A study of Mus musculus with 6 samples.

Results

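The 10 genes described here encode the catalytic subunits of the mouse proteasome in their constitutive and interferon-inducible forms, and the PA28 activators. They were chosen by gene symbol, and all 10 were found among the 14701 protein-coding genes in each sample's table. Psmb5, Psmb6 and Psmb7 are the constitutive catalytic subunits, Psmb8, Psmb9 and Psmb10 their inducible replacements, and Psme1, Psme2, Psme2b and Psme3 the PA28 genes. The study measured RNA in 6 samples of the mouse line IEC 4.1, which is labelled intestinal epithelium. The IFN gamma group (replicates 1, 2 and 4) received 10 ng/ml interferon-gamma for 6 h, and the Ctrl group (replicates 2, 3 and 4) received none, n = 3 each. Both were grown to the same confluence, and no other agent and no genotype is given. No label says that replicates came from separate cultures, so p-values may measure technical spread only.

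The proteasome is the barrel-shaped protease that degrades ubiquitin-tagged proteins, and its cut peptides feed the MHC class I pathway. Its inner beta rings carry the active sites, called beta1, beta2 and beta5, which differ in the residues after which they cut. Interferon-gamma is known to induce alternative subunits for these sites, which enter newly assembled particles, the immunoproteasomes, and favour peptides that fit MHC class I grooves. PA28 caps open the barrel independently of ubiquitin. Messenger RNA was measured here, not assembled particles or peptide cleavage.

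Promoter sequence was taken from RefSeq on GRCm38.p6, where 9 of the 10 genes had an entry. Windows from 250 bases before to 50 bases after the start of each entry were searched on both strands for 4 motifs. The core of the interferon-stimulated response element was written as GAAA, any pair of bases and GAAA. TTCNNNGAA is the gamma-activated site bound by STAT dimers, CCAAT is the NF-Y motif and TGACNNNGC is the core of the antioxidant response element. Of 32851 such windows in the RefSeq table, 3.44% held the interferon-stimulated core, 8.3% TTCNNNGAA, 37.4% CCAAT and 12.4% TGACNNNGC. Among the 9 genes, TTCNNNGAA was found in 1, Psmb8, and the interferon-stimulated core in 1, Psme1. CCAAT was found in 2, Psmb9 and Psme3, and TGACNNNGC in 2, the constitutive Psmb5 and Psmb6. No motif matched in Psmb10, Psme2 or Psme2b, which says only that these letters are not in this window. No matches overlapped one another, and TTCNNNGAA, which reads alike on both strands, was counted once. The match in Psme3, CCAAT read on the other strand at -14 to -10, is not printed. The sequences below are of the inducible genes and constitutive catalytic genes with a match, shown in capitals. They run from 170 bases before to the 30th base after the start. They lie at chr17:34198025-34198224 (plus strand), chr17:34187301-34187500 (minus), chr14:55578324-55578523 (plus), chr14:54617966-54618165 (minus) and chr11:70525187-70525386 (plus). Capitals mark TTCNNNGAA in Psmb8 at positions -97 to -89, CCAAT read on the other strand in Psmb9 at -8 to -4, and the interferon-stimulated core read on the other strand in Psme1 at 10 to 19. They mark TGACNNNGC in Psmb5 at -47 to -39 and in Psmb6 at -9 to -1. The start used for Psmb6 lies downstream of the gene's first base in RefSeq (chromosome 11, 70525324), so its match at -9 to -1 lies inside the gene.
Psmb8: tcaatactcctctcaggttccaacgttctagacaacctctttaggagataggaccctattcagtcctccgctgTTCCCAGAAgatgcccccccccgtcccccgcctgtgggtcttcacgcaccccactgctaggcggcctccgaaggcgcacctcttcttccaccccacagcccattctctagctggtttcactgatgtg
Psmb9: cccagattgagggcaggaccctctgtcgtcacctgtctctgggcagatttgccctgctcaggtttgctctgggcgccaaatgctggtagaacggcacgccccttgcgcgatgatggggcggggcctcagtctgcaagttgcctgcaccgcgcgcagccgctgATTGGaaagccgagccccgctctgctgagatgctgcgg
Psme1: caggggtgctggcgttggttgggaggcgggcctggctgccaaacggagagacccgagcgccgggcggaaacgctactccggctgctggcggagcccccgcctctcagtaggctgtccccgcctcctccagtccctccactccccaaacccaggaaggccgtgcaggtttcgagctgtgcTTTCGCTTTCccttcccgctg
Psmb5: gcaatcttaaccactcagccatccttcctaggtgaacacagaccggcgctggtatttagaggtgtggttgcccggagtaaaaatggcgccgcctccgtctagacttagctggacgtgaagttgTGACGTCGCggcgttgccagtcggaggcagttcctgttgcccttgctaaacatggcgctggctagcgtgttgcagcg
Psmb6: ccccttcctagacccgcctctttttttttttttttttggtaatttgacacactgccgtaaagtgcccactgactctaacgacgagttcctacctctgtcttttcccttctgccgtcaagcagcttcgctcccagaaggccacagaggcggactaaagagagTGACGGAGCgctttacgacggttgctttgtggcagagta

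Each library held 17490689 to 18678543 estimated counts. Of 11423 genes tested with edgeR's quasi-likelihood test, 38.1% were called at a Benjamini-Hochberg adjusted p under 0.05, which was 19.9% called higher and 18.1% called lower with interferon-gamma. On total counts the split moved to 1644 higher and 3124 lower, against 2278 and 2069 with TMM scaling, so the balance of calls depends on scaling. The epithelial label had little support in marker genes: of 12 epithelial genes, 8 had a row, and their summed level was 0.55 to 0.7 TPM in IFN gamma libraries and 0.72 to 1.14 TPM in Ctrl libraries. None of those 8 exceeded 0.58 TPM in any library. Of 9 mesenchymal genes, 8 had a row, 7 were tested, 2 rose and 5 fell, and their summed level was 3425 to 3612 TPM in IFN gamma libraries and 3284 to 3461 TPM in Ctrl libraries. Most of that sum was Vim, at a mean of 2875 TPM in IFN gamma libraries and 2514 TPM in Ctrl libraries. Leukocytes carry immunoproteasome subunits without interferon, and of 11 leukocyte genes 5 had a row. Their sum was 23.3 to 24.4 TPM in IFN gamma libraries and 26.6 to 31.9 TPM in Ctrl libraries, most of it Cd14. Ptprc (CD45), which defines leukocytes, was listed at 0 in all IFN gamma libraries and at no more than 0.02 TPM in Ctrl libraries. In bulk RNA, fewer cells of a type and less RNA per cell cannot be told apart.

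All 3 inducible catalytic subunits rose with interferon-gamma, and none of the 3 constitutive ones passed the test. Psme1, Psme2 and Psme2b rose and Psme3 fell. Of the 10 genes, all tested, 6 were called higher, against 19.9% of all genes tested, 1 lower, against 18.1%, and 3 not called. Psmb9, counted among the 6, passed the minimum-count filter only through its IFN gamma libraries. The IFN gamma and Ctrl libraries did not overlap in 7 of the 10, against 48% of all genes tested. The median log2 fold change was 1.81 over the 10 genes and 0.01 over all genes tested.

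Psmb9 (LMP2, the inducible beta1 subunit, NCBI Gene 16912, chromosome 17, 34182030 to 34187330) changed most. It stood at 249.08, 253.84 and 237.93 TPM in the IFN gamma samples, against 1.44, 2.49 and 2.27 TPM in the Ctrl samples. All treated samples were far above all controls. The log2 fold change was 7.03 ± 0.215 (SE between replicates, n = 3 each). The Ctrl values rest on 9, 16 and 14 counts, with a total of 4826 in the IFN gamma libraries and 39 in the Ctrl libraries. The Ctrl libraries alone, 1 of them under the minimum of 10, would not have passed the filter, so no adjusted p or rank is given. The depth-scaled ratio of those totals was 132 (exact 95% interval 96.2 to 185, counting error only).

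Psmb8 (LMP7, the inducible beta5 subunit, NCBI Gene 16913, chromosome 17, 34198195 to 34201454) had 186.18, 183.2 and 182.11 TPM in the IFN gamma samples, against 11.19, 9.51 and 10.08 TPM in the Ctrl samples. The treated samples were close to one another and far above all controls. Its log2 fold change was 4.27 ± 0.094 (edgeR adjusted p = 5.32e-21), rank 81 among the genes tested.

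Psmb10 (MECL-1, the inducible beta2 subunit, NCBI Gene 19171, chromosome 8, 105935728 to 105938392) had 457.11, 462.75 and 424.23 TPM in the IFN gamma samples, against 48.81, 47.89 and 47.73 TPM in the Ctrl samples. It was the inducible subunit with the highest control level and had the smallest fold of the 3. Its log2 fold change was 3.33 ± 0.054 (adjusted p = 5.57e-21), rank 116. The counts of Psmb8, Psmb9 and Psmb10 were whole numbers in every library. An antisense gene covers 2710 bases of Psmb10 and another 2139 bases of Psmb8 in GENCODE M21. Neither has a row of its own, and no source used here says whether the libraries kept strand, so reads from those antisense genes could not be told apart from these values.

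The constitutive subunits were abundant in both groups and overlapped between them. Psmb5 (beta5, chromosome 14, 54614120 to 54617995), whose site cuts after hydrophobic residues, had 437.8, 446.77 and 411.14 TPM in the IFN gamma samples, against 463.38, 433.98 and 457.29 TPM in the Ctrl samples. Its log2 fold change was 0.04 ± 0.060 (adjusted p = 0.57), and the 95% interval of the fold from limma-voom was 0.952 to 1.12. On upper-quartile scaling, on total counts and without Ctrl replicate 3 its sign turned, to -0.010, -0.028 and -0.0062.

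Psmb6 (beta1, chromosome 11, 70525324 to 70527858), whose site cuts after acidic residues, had 317.49, 327.49 and 290 TPM in the IFN gamma samples, against 313.03, 305.36 and 292.67 TPM in the Ctrl samples. The groups overlapped, with a log2 fold change of 0.14 ± 0.077 (adjusted p = 0.0597) and a limma-voom interval for the fold of 1.01 to 1.21. Psmb6 passed without a low-count filter (adjusted p = 0.0447), without IFN gamma replicate 4 (0.00886) and without Ctrl replicate 2 (0.0159).

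Psmb7 (beta2, chromosome 2, 38588046 to 38643952), whose site cuts after basic residues, was by TPM the most abundant of the 10 genes in Ctrl samples. It had 613.28, 679.67 and 585.99 TPM in the IFN gamma samples, against 668.1, 603.91 and 635.47 TPM in the Ctrl samples. The log2 fold change was 0.11 ± 0.062 (adjusted p = 0.132), with a limma-voom interval for the fold of 0.996 to 1.17, and it passed without Ctrl replicate 2 (adjusted p = 0.0348). The upper bounds of these 3 intervals were 1.12, 1.21 and 1.17. Nek6, on the opposite strand, overlaps 6571 bases of Psmb7 in GENCODE M21.

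The rule pairs each inducible subunit with the constitutive subunit it replaces, so their TPM ratio was taken within each sample. At the beta5 site, Psmb8 over Psmb5 was 0.425, 0.410 and 0.443 in the IFN gamma samples, against 0.0242, 0.0219 and 0.0220 in the Ctrl samples. At the beta1 site, Psmb9 over Psmb6 was 0.785, 0.775 and 0.820 in the IFN gamma samples, against 0.00460, 0.00815 and 0.00776 in the Ctrl samples. At the beta2 site, Psmb10 over Psmb7 was 0.745, 0.681 and 0.724 in the IFN gamma samples, against 0.0731, 0.0793 and 0.0751 in the Ctrl samples. All 3 ratios were higher in every treated sample than in any control. All stayed below 1, so by TPM the constitutive transcript was still the more abundant of each pair at 6 h. At beta2 that order depends on the length scaling in TPM. Before it, Psmb10 had 5216, 5580 and 4762 counts in the IFN gamma libraries, and Psmb7 had 4480, 4865 and 4174. At beta5 and beta1 the constitutive gene had the higher count in every IFN gamma library.

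The log2 ratio moved by 4.23 ± 0.056 at beta5, by 6.90 ± 0.265 at beta1 and by 3.24 ± 0.052 at beta2 (IFN gamma minus Ctrl, ± SE, n = 3 each). Each had p = 0.1 in a two-sided exact permutation test, also after adjustment over the 3 pairs, and 0.1 is the smallest p that 3 against 3 samples allow. The inducible form made up 29.9 ± 0.81% of its pair's TPM at beta5 in IFN gamma samples, against 2.22 ± 0.12% in Ctrl samples (SD, n = 3 each). At beta1 the share was 44.2 ± 0.74% in IFN gamma samples and 0.679 ± 0.19% in Ctrl samples. At beta2 it was 41.7 ± 1.1% in IFN gamma samples and 7.05 ± 0.27% in Ctrl samples. Control cells thus held the largest inducible share at beta2, and treated cells the smallest at beta5, in every sample.

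Each site's summed level, constitutive plus inducible, was larger with interferon-gamma. Psmb8 plus Psmb5 came to 616 ± 19.7 TPM in IFN gamma samples and 462 ± 16.3 TPM in Ctrl samples, a ratio of 1.33. Psmb9 plus Psmb6 came to 559 ± 27.6 TPM in IFN gamma samples and 306 ± 9.93 TPM in Ctrl samples, a ratio of 1.83. Psmb10 plus Psmb7 came to 1074 ± 66.2 TPM in IFN gamma samples and 684 ± 32.6 TPM in Ctrl samples, a ratio of 1.57. None of the sums overlapped between groups (exact permutation p = 0.1 each, the smallest possible). Over all 6 catalytic genes the sum was 2249 ± 112 TPM in IFN gamma samples and 1452 ± 51.7 TPM in Ctrl samples, and the inducible genes held 39.1 ± 0.76% of it in IFN gamma samples and 4.17 ± 0.095% in Ctrl samples.

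**Figure D1:**
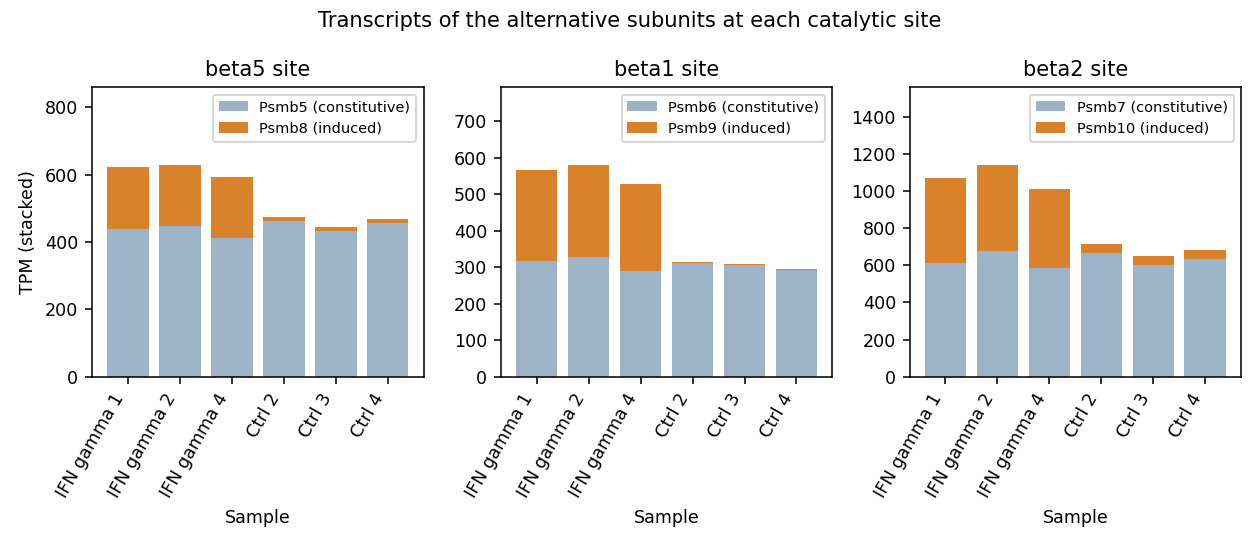
Stacked TPM of the constitutive (grey-blue) and inducible (orange) subunit at each catalytic site, 1 bar per sample, IFN gamma samples left of Ctrl samples. The grey-blue part overlaps between the groups while the orange part reaches 29.9%, 44.2% and 41.7% of the bar on average in IFN gamma samples at beta5, beta1 and beta2.

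The PA28 genes moved apart. PA28 alpha and beta form the cytoplasmic cap known to be interferon-inducible, and PA28 gamma is a separate nuclear activator. Psme1 (PA28 alpha, chromosome 14, 55578494 to 55581527) had 402.53, 403.64 and 395.61 TPM in the IFN gamma samples, against 129.15, 121.69 and 138.56 TPM in the Ctrl samples. Its groups were well separated, with a log2 fold change of 1.73 ± 0.060 (adjusted p = 2.55e-16). Psme2 (PA28 beta, chromosome 14, 55587440 to 55591101) had 911.07, 952.33 and 880.3 TPM in the IFN gamma samples, against 273.47, 248.25 and 276.89 TPM in the Ctrl samples. It was the most abundant of the 10 genes in every treated sample, with a log2 fold change of 1.89 ± 0.074 (adjusted p = 1.25e-16).

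The Psme1 over Psme2 TPM ratio was 0.438 ± 0.013 in IFN gamma samples and 0.488 ± 0.014 in Ctrl samples (SD, n = 3 each). The difference, -0.15 ± 0.035 on the log2 scale, left no overlap between the groups (exact permutation p = 0.1, the smallest possible). Psme3 (PA28 gamma, chromosome 11, 101316213 to 101323537) had 147.07, 139.09 and 135.06 TPM in the IFN gamma samples, against 170.43, 181.43 and 185.44 TPM in the Ctrl samples. Every treated sample was below every control, with a log2 fold change of -0.24 ± 0.022 (adjusted p = 0.000449, limma-voom interval for the fold 0.791 to 0.907). It was called lower under every scaling, test and left-out library tried. Psme1 plus Psme2 stood at 9.38 ± 0.41 times Psme3 in IFN gamma samples and at 2.21 ± 0.16 times Psme3 in Ctrl samples (exact permutation p = 0.1).

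Psme2b (chromosome 11, 48945345 to 48946410), which GENCODE M21 tags as a retrogene, had 9.23, 11.32 and 9.75 TPM in the IFN gamma samples, against 3.04, 2.08 and 2.37 TPM in the Ctrl samples. The groups did not overlap, with a log2 fold change of 2.14 ± 0.198 (adjusted p = 7.2e-09). This value is uncertain for 2 reasons. The Psme2b transcript matched the Psme2-208 transcript at 789 of 794 aligned bases (99.4%), with a longest identical run of 341 bases, and the counts of Psme2 and Psme2b were not whole numbers in any library. Psme2b took 1.27%, 1.49% and 1.39% of the counts of both genes in IFN gamma libraries, against 1.40%, 1.05% and 1.08% in Ctrl libraries, ranges that overlap. Psme2b also overlaps 9930111J21Rik1 by 260 bases in RefSeq and lies inside Gm12185 on the same strand in GENCODE M21. Of these neighbours 9930111J21Rik1 rose by 2.15 on the log2 scale, and Gm12185 had 2482 to 2574 counts in IFN gamma libraries and 3.41 to 9.9 counts in Ctrl libraries. Their part in the Psme2b value was not tested. With both genes summed, Psme2 had a log2 fold change of 1.89, as it had alone.

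The order of the levels differed between the groups. In IFN gamma samples Psme2 was followed by Psmb7, Psmb10, Psmb5, Psme1, Psmb6, Psmb9, Psmb8, Psme3 and Psme2b, by mean TPM. The ranges of neighbours in that order overlapped only for Psmb10 and Psmb5. In Ctrl samples Psmb7 was followed by Psmb5, Psmb6, Psme2, Psme3, Psme1, Psmb10, Psmb8, Psme2b and Psmb9, and the ranges of neighbours overlapped only for Psme2b and Psmb9. With interferon-gamma Psmb10 thus stood level with the constitutive Psmb5, where in Ctrl samples it was the lowest but 3.

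The other proteasome genes rose far less, where they rose at all. Of 51 such genes in 8 lists, 48 had a row and were tested, 21 were called higher (43.8%, against 19.9% of all genes), 2 lower (4.17%, against 18.1%) and 25 not called. Their median log2 fold change was 0.13, and the values ran from -0.27 to 0.67. The called-higher count fell to 13 on upper-quartile scaling, to 12 on total counts, where 3 were lower, and to 13 without Ctrl replicate 4.

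**Figure D2:**
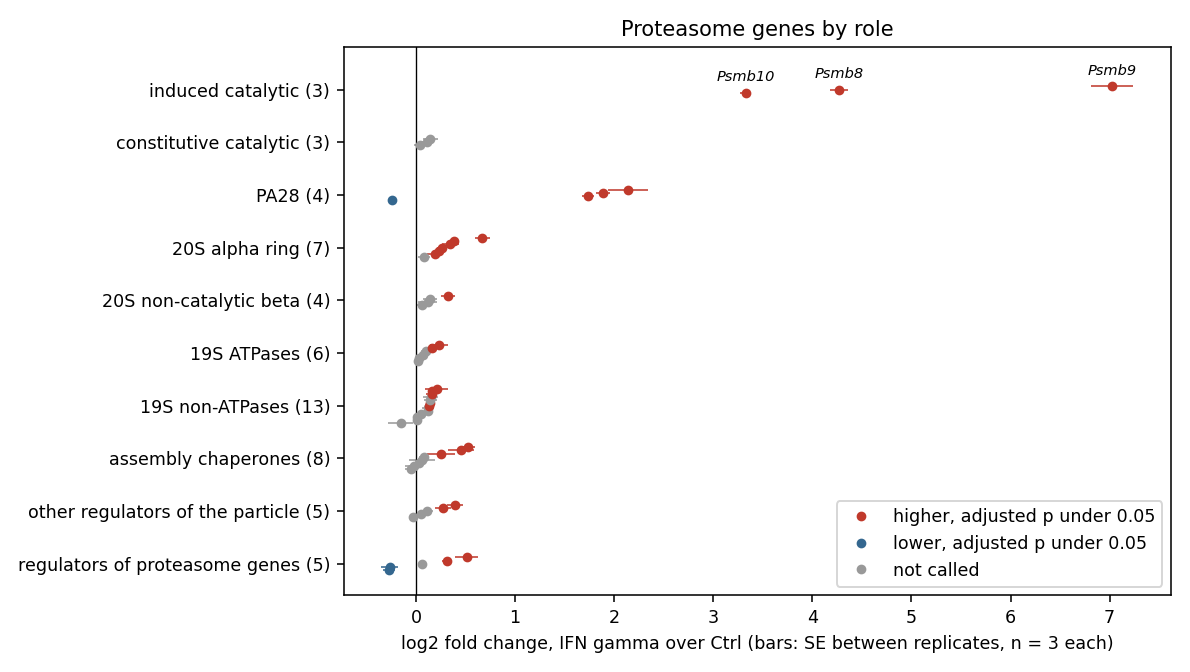
log2 fold change (IFN gamma over Ctrl, with SE between replicates) of each tested proteasome gene, in rows by role, the number of genes in brackets. The 3 inducible catalytic genes lie at 3.33 to 7.03, and the alpha, non-catalytic beta and 19S subunits between -0.16 and 0.67.

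The alpha ring, which gates the barrel, had 6 of 7 genes called higher and none lower, with a median log2 fold change of 0.26. Of all genes tested, 19.9% were called higher and 18.1% lower. Psma5 stood at 710 ± 41.1 TPM in IFN gamma samples and 483 ± 5.45 TPM in Ctrl samples, with a log2 fold change of 0.67 ± 0.075 (adjusted p = 6.29e-09). Psma2 stood at 521 ± 14.9 TPM in IFN gamma samples and 432 ± 19.8 TPM in Ctrl samples, a log2 fold change of 0.38 (adjusted p = 3.04e-06). Of the 4 non-catalytic beta subunits 1 was called, Psmb4, at 894 ± 12.3 TPM in IFN gamma samples and 770 ± 43.3 TPM in Ctrl samples (log2 0.32, adjusted p = 0.000124). The 11 alpha and non-catalytic beta genes had a median level of 425 TPM in IFN gamma samples and 416 TPM in Ctrl samples.

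In the 19S cap, which unfolds substrates, 2 of 6 ATPase genes and 5 of 13 non-ATPase genes were called higher and none lower. The shares over all genes tested were 19.9% higher and 18.1% lower. The largest were Psmc6 (log2 0.23, adjusted p = 0.00642) and Psmc4 (log2 0.16, adjusted p = 0.0338) among the ATPases, and Sem1 (log2 0.21, adjusted p = 0.0308) and Psmd7 (log2 0.16, adjusted p = 0.0131) among the others. The IFN gamma and Ctrl libraries overlapped for Psmc4 (SE 0.074) and Sem1 (SE 0.12). Of 8 tested assembly chaperones 3 were called higher. Pomp, the maturation factor that helps the core particle close and is known to favour inducible subunits, stood at 570 ± 31.8 TPM in IFN gamma samples and 428 ± 15.8 TPM in Ctrl samples (log2 0.52 ± 0.079, adjusted p = 4.3e-07). Psmg4, which helps to build the alpha ring, had a log2 fold change of 0.45 (adjusted p = 0.00108).

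Among 5 other regulators of the particle, the deubiquitinases Usp14 (log2 0.39, adjusted p = 1.58e-05) and Uchl5 (log2 0.27, adjusted p = 0.00216) rose, and 3 were not called. Of 5 genes listed as regulators of proteasome genes, 2 rose and 2 fell, where 19.9% of all genes tested were called higher and 18.1% lower. Nfe2l1, the factor that raises proteasome genes when degradation is limiting, had a log2 fold change of 0.31 ± 0.048 (adjusted p = 5.27e-05), and Ngly1, which deglycosylates it, 0.51 (adjusted p = 0.000294). Ddi2, the protease that activates it, fell by 0.27 in log2 (adjusted p = 0.00137), as did the ubiquitin receptor Sqstm1 (0.27, adjusted p = 0.00126). Psma8, Paaf1 and Psmb11, the thymic beta5 subunit, were not analysed here.

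The nearest genes with a row on each side were then read. Psmb9 and Psmb8 lie in the MHC on chromosome 17 on either side of the peptide transporter gene Tap1, with 226 bases between Psmb9 and Tap1 and 970 between Tap1 and Psmb8 in RefSeq. In GENCODE M21, Psmb9 and Tap1 overlap by 212 bases on opposite strands, and the part of shared reads in either value was not tested. Tap1 stood at 227 ± 19.7 TPM in IFN gamma samples and 2.19 ± 0.43 TPM in Ctrl samples (log2 6.81 ± 0.162, adjusted p = 3.4e-23), a fold near that of Psmb9. Tap2, the partner of Tap1 beyond Psmb8, had a log2 fold change of 4.36 ± 0.088 (adjusted p = 1.65e-21), near that of Psmb8. H2-DMb1, on the other side of Psmb9, was not called (log2 0.13, adjusted p = 0.524).

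Psme1 and Psme2 lie 5913 bases apart on chromosome 14 with Emc9 between them. Emc9, low at 1.80 ± 0.18 TPM in IFN gamma samples and 2.70 ± 1.24 TPM in Ctrl samples, was not called (log2 -0.46 ± 0.346, adjusted p = 0.33). Rnf31, a subunit of the linear ubiquitin ligase on the far side of Psme2, rose by 1.35 ± 0.10 in log2 (adjusted p = 4.16e-12). Beside Psmb10 on chromosome 8, the gene for a chymotrypsin-like protease, whose symbol Ctrl happens to be the label of the control group, had 12, 15 and 10 counts in the IFN gamma libraries and 2, 3 and 2 counts in the untreated libraries. It passed the minimum count of 10 only through the IFN gamma libraries, so no test of it is given. Lcat on its other side was not called (log2 0.08, adjusted p = 0.724).

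Of the 5 tested neighbours of the 3 constitutive catalytic genes, 2 were called (40%, against 38.1% of all genes tested). The genes beside Psmb5, 4931414P19Rik and Cdh24, had log2 fold changes of 0.10 and -0.0036 (adjusted p = 0.537 and 0.979). Pld2 beside Psmb6 had 0.01 (adjusted p = 0.891), while Zmynd15 on its other side, a low gene, rose by 0.73 in log2 (adjusted p = 0.0176). Nek6 beside Psmb7 rose by 0.32 in log2 (adjusted p = 0.00014), and Nr5a1 was not tested. Beside Psme3, Becn1 (log2 0.0027, adjusted p = 0.973) and Aoc2 (log2 -0.20, adjusted p = 0.145) were not called.

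**Figure D3:**
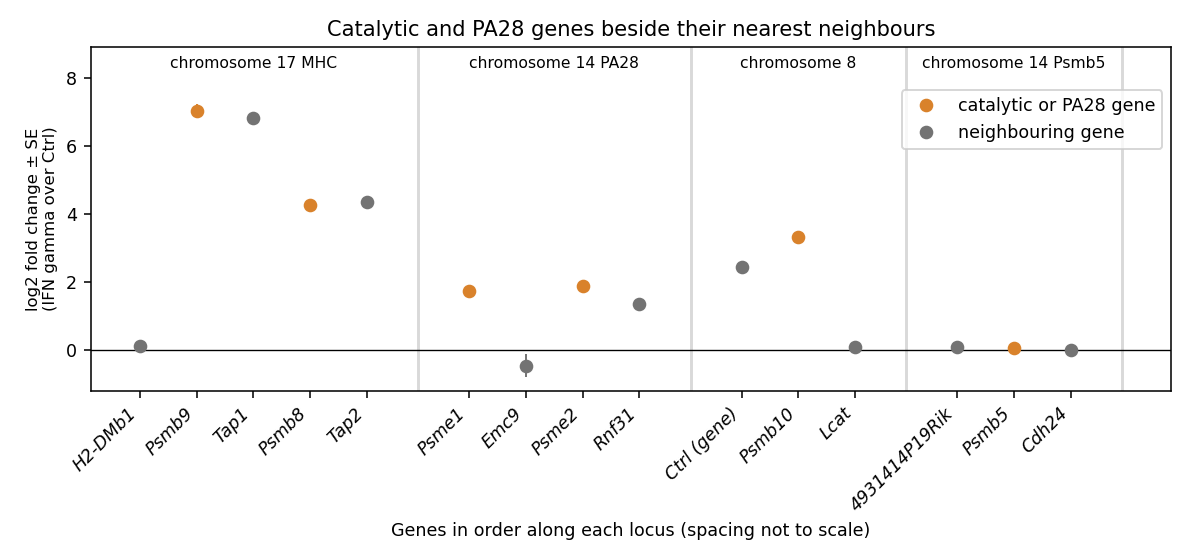
log2 fold change (IFN gamma over Ctrl, with SE) of catalytic and PA28 genes (orange) and their nearest genes (grey) at 4 loci, in order along the chromosome, spacing not to scale. Psmb9, Tap1, Psmb8 and Tap2 lie at 4.27 to 7.03 in a row, while Emc9 lies at -0.46 between Psme1 and Psme2. The point of the gene Ctrl rests on 2 or 3 counts in each untreated library.

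The genes most like each inducible subunit were found by the Euclidean distance between log2 CPM profiles, each centred on its mean over the 6 samples. With 2 groups, a small distance mainly means a fold of like size, and shared regulation was not tested. For Psmb9 they were the guanylate-binding protein genes Gbp3 (distance 0.543) and Gbp8 (0.999), with Tap1 (0.714) between them. For Psmb8, at a log2 fold change of 4.27, they were Clec2d (0.221), Parp9 (0.282) and Ifit3 (0.292), at 4.59, 4.38 and 4.33. For Psmb10, at 3.33, they were Tapbpl (0.138), Ube2l6 (0.181) and Tvp23a (0.231), at 3.27, 3.21 and 3.15. Gbp8 had 0, 1 and 0 counts in the Ctrl libraries, so its distance depends on the prior count. Psmb9 itself had 9, 16 and 14 counts there and Clec2d 14, 11 and 11, so the prior count enters their distances too, to a lesser degree.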

How the data were processed

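Each of the 6 samples had 1 table of 14701 genes. The submitters' processing notes name HISAT, HISAT2, mm10 and GRCm38.p6 without roles, and no source used here names the counting program. The deposited estimated counts (6.8% to 7.37% of rows per library not whole), TPM and FPKM values are the authors', per the file headers. The rows of Psmb8, Psmb9 and Psmb6 list a scaffold outside the main chromosomes as well, and how its reads were counted is not stated.

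Rounded counts went through edgeR 4.0.16 in R 4.3.3 (filterByExpr with a minimum count of 10, TMM, robust quasi-likelihood fit), with Benjamini-Hochberg adjustment over the 11423 genes kept. Standard errors come from log2 CPM with a prior count of 2, and fold intervals are 95% intervals from limma-voom (limma 3.58.1). TPM ratios used no pseudocount. TPM and TMM-scaled CPM are scaled differently, so small differences can change sign between them. On simulated data the edgeR step recovered 50% of genes set to change 1.25-fold and 88% of those set to change 1.5-fold. The simulation set 50 genes to change at each fold among 11423, at all levels of expression, and gave 173 calls. With 38.1% of genes called in the data, the adjusted threshold was stricter in the simulation, so its rates need not hold here. A gene not called may still have changed by so little.

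The genes, lists and tests were chosen with earlier results of these data known. Named were all 10 genes, up to 2 called rises and falls per list, the nearest gene with a row on each side, and 3 genes nearest each inducible subunit in profile. Alternatives were DESeq2 1.42.0, limma-voom, scaling by RLE, by upper quartile or by total counts, no low-count filter, a replicate block, each library left out, Psme2 summed with Psme2b and, for ratios, a pseudocount of 1 TPM, CPM, FPKM and a minimum of 1 TPM. Coordinates and promoters are RefSeq's on GRCm38.p6, transcripts and overlaps GENCODE M21's.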

Additional observations from a re-analysis of the deposited data

How the results depend on the processing

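Of 242 values recomputed under an alternative, 231 kept their direction and their side of the threshold, or stayed within 1.5 times for counts. They include 11 alternatives for each pair's ratio, which could change in direction only, as their p cannot go below 0.1. The minimum of 1 TPM left the ratios as they were, since the lowest value in them was 1.44 TPM. The rises of Psmb8, Psmb10, Psme1, Psme2 and Psme2b and the fall of Psme3 were called under every alternative run for them. Psmb9, which passed the filter only through its IFN gamma libraries, had a log2 fold change of 6.82 to 7.22 over the alternatives. The changes in log2 TPM ratio kept their direction, at 4.10 to 4.28 for Psmb8 over Psmb5, 6.32 to 7.06 for Psmb9 over Psmb6 and 3.21 to 3.28 for Psmb10 over Psmb7. Psmb5, called in none, had a log2 fold change of -0.010 on upper-quartile scaling, -0.028 on total counts and -0.0062 to 0.088 with 1 library left out. Psmb6 passed without the filter (log2 0.14, edgeR adjusted p = 0.0447) and had 0.083 to 0.20 with 1 library left out, and Psmb7 had 0.065 to 0.16. Other proteasome genes called higher numbered 13 on upper-quartile scaling, 12 on total counts and 13 to 21 with 1 library left out, and 3124 genes in all were called lower on total counts. The median log2 fold change of all genes was 0.01 with TMM, -0.04 with upper-quartile scaling and -0.06 on total counts. The cause of these changes was not tested. The replicate block compares the groups only within replicates 2 and 4. IFN gamma replicate 1 and Ctrl replicate 3 have no counterpart of the same number and add nothing to its fold changes. That fit thus rests on fewer libraries than the others and leaves little to measure spread. With it, 6 of the 10 genes were higher, Psmb9 among them, and 1 lower, as without it. In all, 2133 genes were higher and 1793 lower, and Psmb9 had a log2 fold change of 7.22. Replicate numbers 2 and 4 occur in both groups, and the deviations of same-numbered samples correlated at 0.128 for 2 and -0.09 for 4. Samples with different numbers correlated at -0.146 to 0.161. Deviations were centred within each group, so these few values cannot show whether samples were paired. No label says that a shared number marks a shared culture, so the numbers were not taken to pair samples. Depth limits Psmb9 in Ctrl libraries, at 9 to 16 counts.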
